A study of Mus musculus with 6 samples.

Results

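Double-positive (DP) thymocytes, the T cell precursors that carry both coreceptors, were described here through 7 genes. These were the coreceptor genes Cd4, Cd8a and Cd8b1 and the genes called stage genes here, Cd24a, Arpp21, Aqp11 and Rmnd5a. Whether the stage genes are particular to DP cells was not tested. Each gene was read from the probe set whose annotated symbol was exactly that gene, and each of the 7 had 1 such probe set among 19938 genes measured. The cells came from untreated 3-week-old C57BL/6 animals, and each genotype, wild type (WT) and Hdac3 knockout (KO), was measured on 3 arrays. The strain name joins LCK and Hdac3. The Lck promoter is commonly used to drive Cre recombinase in thymocytes before the DP stage, but the labels do not state the driver, the deleted part of Hdac3 or the Cre status of the WT mice. The design text calls the 3 replicates biological and describes pooled RNA from 2 mice of each genotype. It does not assign mice to arrays, so whether each replicate is a separate pool is unknown, and p-values measure the spread between these arrays.

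A thymocyte enters the DP stage when both coreceptor loci become active, and it leaves the stage when selection through its T cell receptor silences one of them. CD4 is a single chain that binds MHC class II, whereas CD8 is a dimer, in the thymus mostly of the CD8 alpha and CD8 beta chains, that binds MHC class I. Both bring the kinase LCK to the receptor. The stage genes have other roles: CD24 (heat-stable antigen) is a lipid-anchored surface glycoprotein of immature thymocytes that is lost as T cells mature, ARPP21 (TARPP in thymocytes) is a cyclic-AMP-regulated phosphoprotein with an RNA-binding R3H domain, AQP11 is an aquaporin of intracellular membranes, and RMND5A is a RING subunit of the CTLH ubiquitin ligase. HDAC3 is the histone deacetylase of the NCoR and SMRT corepressor complexes, and the comparison asked how the expression of these genes differed when it was knocked out.

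The targeted gene was lower on every KO array. Hdac3 signal, in log2 units, was 9.40, 9.42 and 9.44 in WT, in the order of the replicate numbers, and 8.28, 8.32 and 8.32 in KO. The KO mean was 46.2% of the WT mean (limma adjusted p = 3.5e-04), and whether the probes lie in the deleted part was not tested. Signal was compressed on the KO arrays: interquartile ranges were 3.06 to 3.25 there and 3.29 to 3.49 on the WT arrays. With all genes split by level into 10 bins of equal size, the median difference (KO minus WT) was -0.06 in the brightest bin, where 6 of the 7 members lie, and -0.15 in the next, which holds Cd24a. Markers of other cells were mostly dim. Of 9 B cell markers 1 lay above the median level of all genes, as did 0 of 12 neutrophil, 1 of 13 macrophage and dendritic cell, 0 of 6 erythroid, 3 of 10 thymic epithelial and 1 of 8 NK and gamma-delta T cell markers. In the B cell, macrophage and NK lists, where 0 genes passed the test below, the only gene above that level was Cd79b (-0.15), Cd68 (-0.12) and Sox13 (0.10), respectively. KO array 2 stood apart in the neutrophil list, with a median of 5.79 against 4.40 to 4.52 on the other 5 arrays. It was also the most compressed array, with the narrowest interquartile range (3.06) and the highest median over all probe sets (5.70).

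All 7 members were bright, and the coreceptor genes were the brightest among them. Cd8a ranked between 7 and 9 of the 19938 genes on each array, Cd8b1 between 72 and 82, and Cd4 between 114.5 and 171. By mean over the 6 arrays the members followed the order Cd8a (12.83), Cd8b1 (11.60), Cd4 (11.23), Aqp11 (10.97), Rmnd5a (10.36), Arpp21 (10.34) and Cd24a (8.63). Arpp21 and Rmnd5a differed by less than their spread between arrays, and Cd4 and Aqp11 overlapped in the WT arrays. Probe sets differ in how well they bind, so this is an order of signals and not of transcript numbers. Cd24a was at the 86.6th percentile of all genes and the other 6 members were above the 97th.

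None of the 7 members passed the test between genotypes (limma, Benjamini-Hochberg adjusted p under 0.05 over 23410 probe sets), where 5.79% of all probe sets did, 1.75% higher and 4.04% lower in KO. Counted over genes by their brightest probe set, 6.09% passed. At an unadjusted p under 0.05 the count was 2 of 7, Cd24a and Aqp11, against 25.2% of all probe sets. The groups did not overlap for 3 of 7, Cd24a, Aqp11 and Rmnd5a, all lower in KO, while 30.0% of all probe sets (31.0% of genes) did not overlap in either direction and 16.5% were lower in KO without overlap. The difference was negative for 6 of the 7, against 46.9% of all probe sets. Cd4 counts among the 6 at -0.0021, and its sign was reversed in 5 of 14 alternative settings. Negative values were more common at the level of the members. The median difference was -0.06 in the brightest of the 10 bins and -0.15 in the next, and 62.7% of the brightest bin had a lower difference than Cd4. The median difference was -0.16 over the members and 0.02 over all genes, and the median size regardless of sign was 0.16 in both. In bulk RNA a lower signal may come from fewer cells of a type or from less RNA per cell, and these cannot be told apart.

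**Figure D1:**
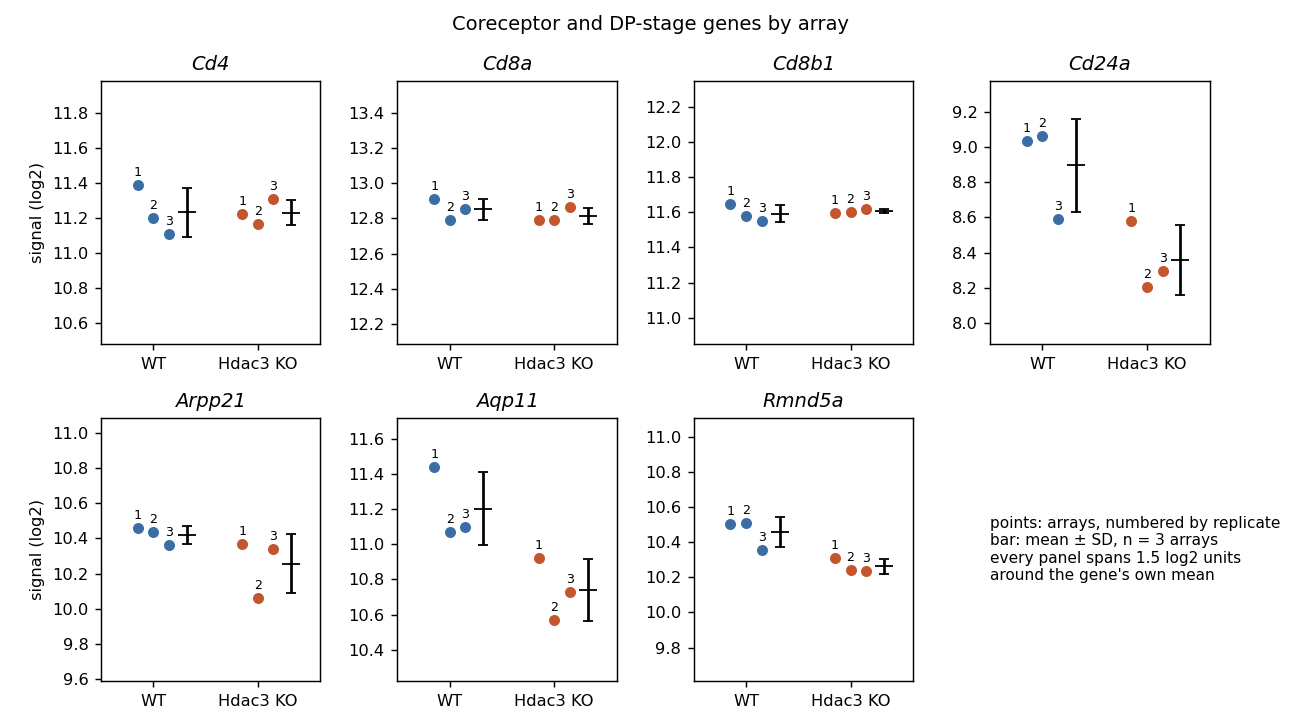
Signal (log2) of each of the 7 members on each of the 6 arrays, numbered by replicate, with mean ± SD over 3 arrays per genotype beside the points; every panel spans the same height. The genotypes overlap for Cd4, Cd8a, Cd8b1 and Arpp21, and the KO arrays lie below all WT arrays for Cd24a, Aqp11 and Rmnd5a.

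The coreceptor genes had close to equal signal in both genotypes. Cd4 was at 11.39, 11.20 and 11.11 in WT and at 11.22, 11.16 and 11.31 in KO, in replicate order. Both the highest and the lowest Cd4 values were measured in WT. In KO it stood at 99.9% of WT, with a 95% interval of 85.2% to 117% (limma adjusted p = 0.99). The sign of the Cd4 difference was not stable, and its value was -0.063 when WT array 3 was omitted and 0.075 when WT array 1 was.

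Cd8a, the alpha chain, was at 12.91, 12.79 and 12.85 in WT and at 12.79, 12.79 and 12.87 in KO. Its KO signal was 97.5% of WT (95% interval 85.0% to 112%, limma adjusted p = 0.82), and the groups overlapped. Cd8b1, the beta chain, was at 11.64, 11.58 and 11.55 in WT and at 11.60, 11.60 and 11.62 in KO. The KO arrays lay within the range of the WT arrays, at 101% of WT (95% interval 88.4% to 115%, limma adjusted p = 0.93). Its difference of 0.01 changed sign to -0.088 after median centring, which shifts the median over all probe sets from 0.02 to -0.08, and to -0.0054 without WT array 3. These intervals leave room for changes of about the size of their bounds, so equality was not shown.

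The balance between the coreceptor genes was also compared within arrays, which removes shifts of a whole array. Cd8a exceeded Cd8b1 by 1.26 ± 0.04 in WT and by 1.21 ± 0.03 in KO (SD, n = 3 each), a change of -0.05 (exact two-sided permutation test, p = 0.20, adjusted over 3 pairs p = 0.60). Cd4 minus Cd8a changed by 0.04 (exact permutation p = 0.80) and Cd4 minus Cd8b1 by -0.02 (exact permutation p = 1), and both gave an adjusted p of 1. With 3 arrays against 3 the smallest p this test allows is 0.1, so it could not have passed.

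Cd8b1, Cd8a and Rmnd5a are consecutive protein-coding genes on chromosome 6 in the RefSeq annotation of GRCm38.p6. The upstream sequences that could be matched are shown for Cd8a, Rmnd5a and Aqp11, the first pair as neighbours that differ in base composition and Aqp11 for its lower KO signal. Of the 7 members, 4 were found in the set of promoter windows (GRCm38.p6) used here, with 9 alternative windows for Arpp21. Absence from that set says nothing about the annotation of Cd4, Cd8b1 and Cd24a in RefSeq. Each line gives the 250 bases before the annotated start, 5′ to 3′ on the strand of the gene, and capitals mark matches on either strand to the E-box CANNTG, the RUNX core TGTGGT or the ROR half-site AGGTCA.
Cd8a, chr6:71373177-71373426, + strand: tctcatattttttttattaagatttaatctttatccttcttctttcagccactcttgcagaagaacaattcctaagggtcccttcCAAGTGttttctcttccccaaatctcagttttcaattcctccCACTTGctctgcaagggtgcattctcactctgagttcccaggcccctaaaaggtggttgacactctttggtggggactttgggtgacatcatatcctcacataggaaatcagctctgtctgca
Rmnd5a, chr6:71440638-71440887, - strand: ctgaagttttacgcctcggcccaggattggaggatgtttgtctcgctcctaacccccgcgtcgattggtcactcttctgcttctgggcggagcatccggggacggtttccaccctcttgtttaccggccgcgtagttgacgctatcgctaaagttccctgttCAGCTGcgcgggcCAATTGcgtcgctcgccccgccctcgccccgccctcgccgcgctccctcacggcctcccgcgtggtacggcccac
Aqp11, chr7:97738248-97738497, - strand: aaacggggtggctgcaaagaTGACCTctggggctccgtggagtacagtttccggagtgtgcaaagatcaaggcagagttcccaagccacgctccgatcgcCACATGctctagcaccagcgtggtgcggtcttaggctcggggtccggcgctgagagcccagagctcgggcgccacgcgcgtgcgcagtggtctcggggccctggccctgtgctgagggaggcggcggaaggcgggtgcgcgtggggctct
The Cd8a window held 0 CpG dinucleotides, the Rmnd5a window 29 and the Aqp11 window 23, where the median of 32851 windows was 6. E-boxes were found in all 3 windows, 2 each in Cd8a and Rmnd5a and 1 in Aqp11, and 66.2% of all windows had at least 1. The RUNX core matched none of the 3 (14% of all windows), and the ROR half-site matched Aqp11 alone, 230 bases before the start (14% of all windows). E-box and RUNX factors and the nuclear receptor ROR gamma t act in DP thymocytes, but a match of letters is a description and not a binding site.

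Rmnd5a, next to Cd8a, was at 10.50, 10.51 and 10.36 in WT and at 10.31, 10.24 and 10.24 in KO. Each KO array lay below each WT array, by a narrow margin between WT array 3 and KO array 1. The difference was -0.19 (95% interval -0.40 to 0.01, limma adjusted p = 0.22), a KO signal of 87.4% of WT. It did not pass in any of 14 alternative settings, where it ranged from -0.30 to -0.14. Rnf103, the next gene after Rmnd5a, differed by -0.17 (limma adjusted p = 0.32). Gm1070, a predicted gene on the other side of Cd8b1, rose by 0.44 (SE 0.11, limma adjusted p = 0.044) from 5.93 ± 0.14 to 6.37 ± 0.10 (SD, n = 3). That call was lost after median centring, and among the 6 fits that omit an array it held solely without WT array 3 (0.37 to 0.51, highest limma adjusted p 0.14).

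Cd24a had the largest difference among the members. Its signal was 9.03, 9.06 and 8.59 in WT and 8.58, 8.20 and 8.29 in KO. The groups did not overlap, but WT array 3 and KO array 1 were almost level. The means were 8.90 ± 0.26 and 8.36 ± 0.20 (SD, n = 3), a difference of -0.54 (SE 0.15, 95% interval -0.87 to -0.21, limma adjusted p = 0.064), with KO at 68.8% of WT. Only 3.71% of all genes had a larger difference in either direction. The call was made in 6 of 14 alternative settings, among them the fit without WT array 3 (-0.69, limma adjusted p = 0.021) and that without dim probe sets (limma adjusted p = 0.047). After quantile normalization, which evens out the spread of signal between arrays, the difference was -0.42 (limma adjusted p = 0.11).

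CD24 is also carried by B cells, erythroid cells and granulocytes. Linear signals of each marker list were summed and the sum was put back in log2 units. The sum of the B cell markers was 8.35 to 8.58 in WT and 8.40 to 8.51 in KO, and that of the 6 erythroid markers 7.77 to 8.01 and 7.83 to 7.99. The neutrophil sum was 8.05 to 8.24 in WT and 8.24 to 9.95 in KO, its top value on KO array 2, which was also the lowest array for Cd24a. Without KO array 2 the Cd24a difference was -0.46 (limma adjusted p = 0.19). Whether other cells, or the compressed signal of KO array 2, contributed to the Cd24a result was not tested.

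Aqp11 showed a similar size of difference at a higher level. It was at 11.44, 11.07 and 11.10 in WT and at 10.92, 10.57 and 10.73 in KO. The groups did not overlap, and WT array 1 stood above the other WT arrays. The difference was -0.46 (SE 0.13, 95% interval -0.76 to -0.17, limma adjusted p = 0.069), a KO signal of 72.5% of WT, and it was -0.46 after quantile normalization as well (limma adjusted p = 0.083). It passed in 4 of 14 alternative settings, and the value was smallest, at -0.34, without WT array 1 (limma adjusted p = 0.20). KO array 2, which stood apart in the neutrophil markers and was the most compressed array, was also the lowest for Aqp11. Without it the difference was -0.38 (limma adjusted p = 0.21). The part of those markers or of the compression in the result was not tested. In the brightest of the 10 bins, 2.26% had a lower difference than Aqp11. Clns1a, the gene beside it in the genome, differed by -0.01 (limma adjusted p = 0.96).

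**Figure D2:**
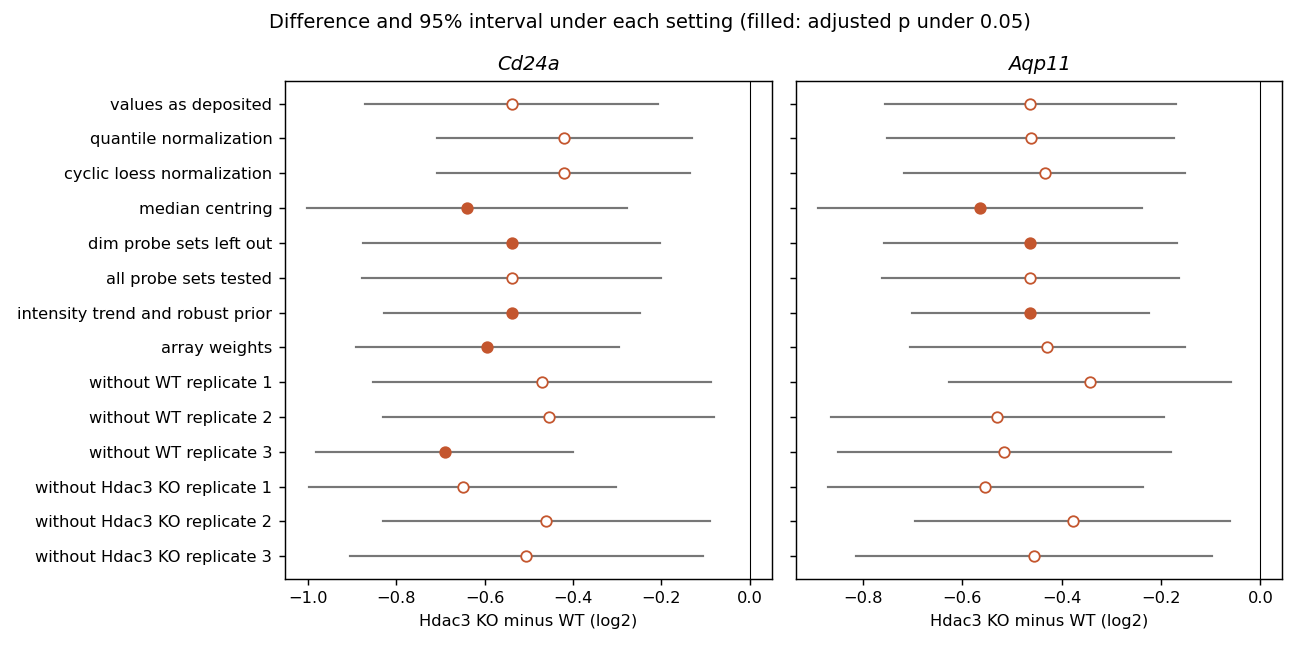
Difference between genotypes (log2, horizontal axis) of Cd24a (left) and Aqp11 (right) for the values as deposited and under alternative settings, with 95% intervals as lines; filled points have a limma adjusted p under 0.05. All differences are negative, and whether they passed the test changed with the setting. The replicate block, a setting in which both genes passed, is not drawn.

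Arpp21 was at 10.46, 10.44 and 10.36 in WT and at 10.37, 10.06 and 10.34 in KO. KO arrays 1 and 3 lay beside WT array 3, and KO array 2 lay below all others. The difference was -0.16 (95% interval -0.40 to 0.07, limma adjusted p = 0.36), and it was -0.07 without KO array 2 (limma adjusted p = 0.77). The part of the neutrophil marker signal of KO array 2, or of its compressed signal, in this result was not tested. Its flanking genes Stac (0.25) and Pdcd6ip (0.08) did not pass, nor did Mtres1 (-0.13) and Qrsl1 (-0.19), which flank Cd24a. The microRNA gene Mir128-2 lies inside Arpp21, and its mature product from the 3′ arm is shown because its own probe set could be set beside that of the host gene. The seed, bases 2 to 8, is in capitals in the RefSeq sequence.
mmu-miR-128-3p: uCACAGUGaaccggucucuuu
The Mir128-2 probe set was dim, at 5.41, 5.53 and 5.66 in WT and at 5.35, 4.94 and 5.47 in KO, below the median of all genes (5.74). Its difference of -0.28 did not pass (limma adjusted p = 0.24), and KO array 2 was again the lowest. RefSeq gives the same mature sequence for Mir128-1 on another chromosome, and which form of the RNA the probe set detects was not tested.

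**Figure D3:**
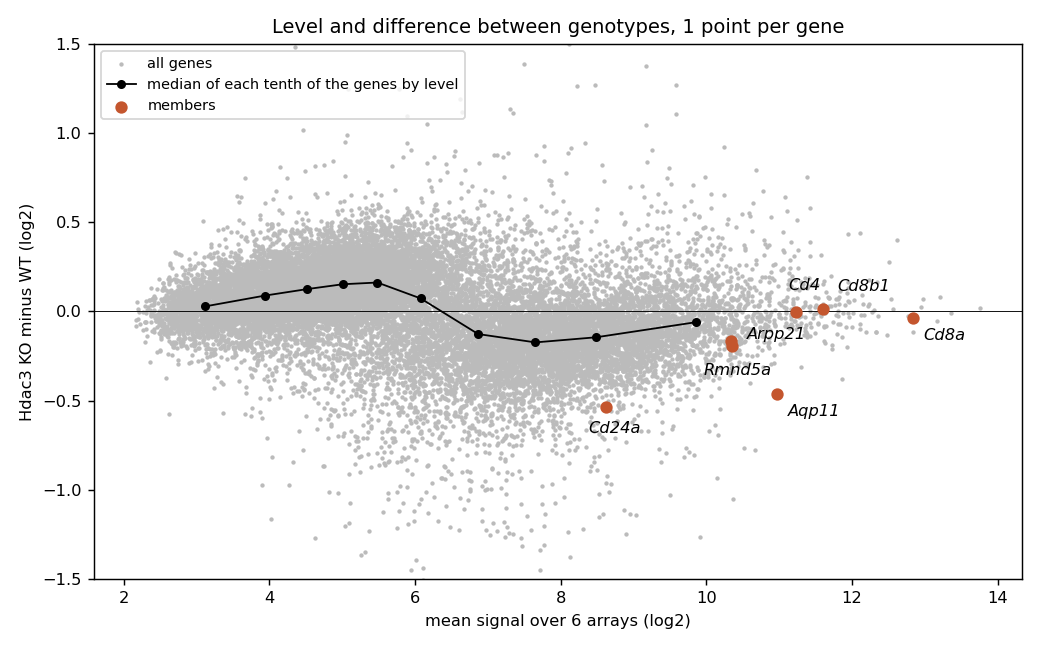
Mean signal over 6 arrays (log2, horizontal axis) against the difference between genotypes (KO minus WT, log2, vertical axis) for 19938 genes in grey, with the 7 members in orange and the median of each of 10 bins of genes by level in black; 21 genes lie outside the vertical limits of 1.5. Cd4, Cd8a and Cd8b1 lie near 0 at the bright end, and Cd24a and Aqp11 lie at -0.54 and -0.46, below the medians of genes of like level.

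The members had different profiles over the arrays. Among the 7, the closest pair was Cd8a and Cd8b1, whose profiles, each centred on its own mean, differed by 0.04 (root mean square over 6 arrays, log2), and Cd24a and Aqp11 were each other's nearest members at 0.16. Among the brightest 4984 genes, the nearest to Cd4 was Secisbp2 (0.02), to Cd8a Vps4b (0.01), to Cd8b1 Map4k4 (0.02), to Arpp21 Vps29 (0.02) and to Rmnd5a Nfx1 (0.02). For these members between 946 and 1809 genes lay within 0.1, so near-flat profiles were common. Cd24a had 14 genes within 0.1 and Aqp11 had 70. The nearest to Cd24a was Fkbp5 (0.06), with 10.50, 10.66 and 10.23 in WT and 10.08, 9.80 and 9.86 in KO, and the nearest to Aqp11 was Ralgps2 (0.04), with 9.13, 8.69 and 8.77 in WT and 8.66, 8.28 and 8.44 in KO.

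Of 22 measured genes that control the coreceptor loci, Tox and Lef1 fell, 0 rose and 20 did not pass, with a median difference of -0.07. Among all genes 6.09% passed in either direction and the median difference was 0.02. The counts of this and the following lists are description only, since the lists were chosen with earlier results of these data known. All 22 genes lay above the median level of all genes. With dim probe sets left out, 1745 of 14046 probe sets passed, so the share depends on level. Tox, a nuclear factor needed for the CD4 lineage, fell by 0.90 (SE 0.15, limma adjusted p = 0.010), from 8.91, 9.11 and 8.51 in WT to 7.84, 7.93 and 8.08 in KO, and its call held without any 1 array. Lef1, a partner of beta-catenin, fell by 0.40 and among the 6 fits that omit an array kept its call only without WT array 3 (-0.44 to -0.37, highest limma adjusted p 0.12). Runx1, which acts on the Cd4 silencer in thymocytes, differed by 0.16 (limma adjusted p = 0.29), Runx3, which silences Cd4 in the CD8 lineage, by -0.23 (limma adjusted p = 0.20), and Zbtb7b, the CD4 lineage factor ThPOK, by -0.08 (limma adjusted p = 0.87). Runx1, Runx3 and Zbtb7b were picked after their values were seen.

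Of 12 genes of kinases that work with the coreceptors and of their regulators, Pag1 rose, Cd247 fell and 10 did not pass, with a median of 0.12. Lck itself was not analysed here. Pag1, the membrane adaptor that recruits the LCK inhibitor CSK, rose from 9.15 ± 0.08 to 9.87 ± 0.17 (SD, n = 3), without overlap, a difference of 0.72 (SE 0.11, limma adjusted p = 0.0070). Its call held in all 6 fits that omit an array (0.65 to 0.81). Cd247, the zeta chain of the receptor, fell by 0.43 and among those 6 fits kept its call only without WT array 3 (-0.47 to -0.35, highest limma adjusted p 0.14), and after quantile normalization it did not pass (-0.34, limma adjusted p = 0.069). Of 10 measured genes of MHC ligands and their loading and control, Tap2, a peptide transporter subunit for MHC class I, fell by 0.46, 0 rose and 9 did not pass. Among the same 6 fits Tap2 was called only without WT array 3 (-0.50 to -0.38, highest limma adjusted p 0.11), and its call was lost after quantile normalization (-0.35, limma adjusted p = 0.067).

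Of 19 other genes of the DP stage, Mns1 and Cd1d1 fell, Themis rose and 16 did not pass, where 6.09% of all genes passed. Their median difference was -0.07. Mns1, a protein of meiotic and ciliated cells, fell by 1.22 (SE 0.27, limma adjusted p = 0.032), from 8.55, 9.20 and 8.99 to 7.74, 7.08 and 8.26. The call was lost without WT array 2 or 3 or KO array 1 or 2 (-1.502 to -0.91, highest limma adjusted p 0.11) after quantile or cyclic loess normalization (-1.10, limma adjusted p = 0.063 for quantile) and with an intensity trend and robust prior. Cd1d1, which presents lipids, fell by 0.65 and Themis, a selection adaptor, rose by 0.43. Cd1d1 was called without WT array 3 or KO array 1 and lost without any other array (-0.73 to -0.53, highest limma adjusted p 0.079), and Themis, also lost after cyclic loess normalization, median centring and with all probe sets tested, was called among the 6 fits that omit an array only without WT array 1 (0.36 to 0.53, highest limma adjusted p 0.14).

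Relatives and partners of the stage genes were read from the same fit. Of 10 further CTLH subunits, Gid4, a substrate receptor of the ligase, fell by 0.44 (limma adjusted p = 0.029), 0 rose and 9 did not pass. Among the 6 fits that omit an array its call held only without WT array 3 (-0.49 to -0.40, highest limma adjusted p 0.11), and it was lost after quantile normalization (-0.31, limma adjusted p = 0.065). Of 11 other aquaporins, 3 lay above the median level of all genes. Aqp1, a water channel of red cells and epithelia, rose by 0.51 from a dim 5.28 ± 0.20 to 5.79 ± 0.03 (SD, n = 3), and 10 did not pass. The Aqp1 call was lost without WT array 1 or any KO array (0.40 to 0.61, highest limma adjusted p 0.11) and after quantile normalization (0.40, limma adjusted p = 0.073). The direction of Aqp1 was opposite to the sign measured for Aqp11, which did not itself pass. The 2 genes differ in level, and the median difference over all genes was 0.16 in the bin of Aqp1 (mean 5.53) and -0.06 in that of Aqp11. The median over the 11 other aquaporins was 0.18, close to the value for genes at the level of Aqp1.

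Of 7 relatives of ARPP21 and calmodulin genes, all had negative differences, with a median of -0.28. Negative values were common at these levels: the median over all genes was -0.17, -0.15 and -0.06 in the 3 brightest of the 10 bins, and 46.9% of all probe sets were negative. R3hdm4, an R3H domain relative named after its values were seen, was at -0.085 and turned to 0.0037 after quantile normalization. Arpp19, a phosphoprotein that inhibits the phosphatase PP2A, fell by 0.67 (SE 0.12, limma adjusted p = 0.014), from 8.57, 8.59 and 8.22 to 7.90, 7.69 and 7.76, and the other 6 did not pass. The call of Arpp19 was lost without WT array 1 or 2 or KO array 2 or 3 (-0.79 to -0.61, highest limma adjusted p 0.060). Of 7 lipid-anchored surface proteins and CD24 receptors, Ly6d and Hmgb1 fell, Cd52 rose and 4 did not pass. Hmgb1, a chromatin protein that CD24 can bind outside the cell, fell by 0.79 (SE 0.11, limma adjusted p = 0.0040) and its call held without any 1 array. Cd52, a short lipid-anchored glycoprotein of lymphocytes, rose by 0.54 (SE 0.10, limma adjusted p = 0.016), from 9.59, 9.54 and 9.56 to 9.96, 10.11 and 10.25. It lost its call without WT array 1 or 2 or KO array 2 or 3 (0.47 to 0.62, highest limma adjusted p 0.070). Ly6d fell by 2.35, and was not called without WT array 1 (-2.71 to -1.74 over the 6 fits that omit an array, highest limma adjusted p 0.067). A robust prior that follows intensity ended its call too.

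**Figure D4:**
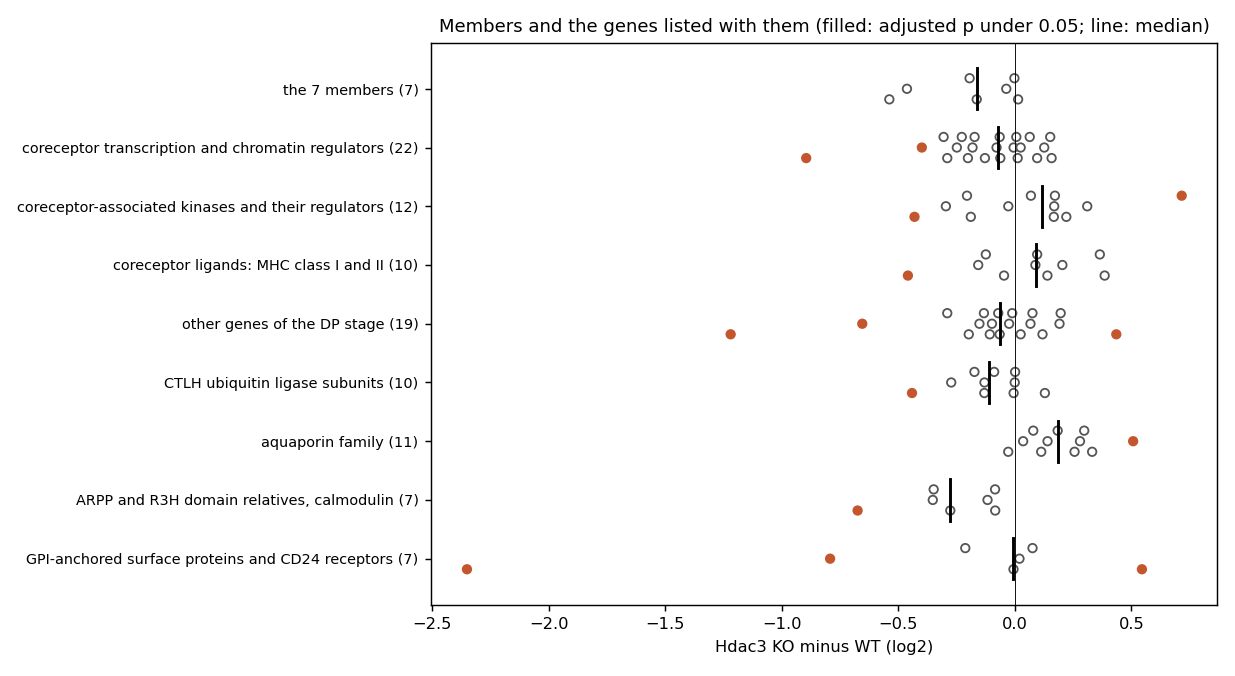
Difference between genotypes (KO minus WT, log2, horizontal axis) for the 7 members and for the genes of 8 related lists, 1 point per gene, with the number measured in brackets; filled points have a limma adjusted p under 0.05 and black lines are medians. No member is filled, and the medians lie between -0.28 and 0.18.

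Genes next to Cd4 and stage markers gave further context. Gpr162, the gene before Cd4 on the chromosome, was at 8.97, 8.65 and 9.13 in WT and at 8.17, 8.13 and 8.34 in KO, without overlap. It fell by 0.71 (SE 0.13, limma adjusted p = 0.016), while Cd4 itself differed by -0.00. The Gpr162 call was lost without WT array 1 or KO array 2 (-0.84 to -0.60 over the 6 fits, highest limma adjusted p 0.066) and after quantile normalization (-0.58, limma adjusted p = 0.059). Lag3, the CD4-related receptor gene on the other side, differed by -0.21 (limma adjusted p = 0.28). Among 12 genes of the double-negative stage, which precedes the coreceptors, Il2ra rose by 2.28, Il7r and Cd44 fell by 1.19 and 0.66 and 9 did not pass. Il7r (mean 5.09) and Cd44 (mean 4.65) were dim, below the median level of all genes. Il2ra was below that level in WT too (mean 5.51). Its values were 6.23, 4.99 and 5.33 in WT and 7.92, 7.36 and 8.09 in KO (limma adjusted p = 0.0033). Among 14 genes of mature single-positive cells, in which CD24 is lost, Ifngr1 rose by 0.37, Il7r and Nkg7 fell (Nkg7 by 0.45) and 11 did not pass. Among the 6 fits that omit an array, Ifngr1 and Nkg7 were called only without WT array 3. Nkg7 was dim as well (mean 5.29). Klf1 (0.44) and Car2 (-0.87) of the erythroid list and Cldn3 (0.47) and Epcam (-0.37) of the epithelial list were called from dim or middling levels, and Epcam in 0 of the 6 fits that omit an array. The summed linear signal of the mature single-positive list, in log2 units, was 11.70 to 11.79 in WT and 12.02 to 12.12 in KO. A sum is weighted to the brightest members, here Ifngr1 and Cd5, a receptor regulator that differed by 0.47 without passing (limma adjusted p = 0.093). The medians of the list overlapped, at 5.92, 6.07 and 6.38 in WT and 6.05, 6.03 and 5.95 in KO. S1pr1 (-0.32), Itgae (-0.29) and Bcl2 (-0.27), like Il7r and Nkg7, were on the lower side, though these 3 did not pass. Cd69 (0.35) and Ccr7 (0.35), like Ifngr1 and Cd5, were on the higher side and did not pass either. The median difference over the 14 genes was 0.10, so the list did not lean to the lower side. Cd5, S1pr1, Itgae, Bcl2, Cd69 and Ccr7 were named after their values were seen. The part of mature cells in the Cd24a result was not tested.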

How the data were processed

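The deposited values are log2 probe set values of 6 arrays of DP thymocytes; that they are log2 was read from their range, 1.94 to 13.98. Per the labels' protocols, biotin-labelled sense target was prepared with an Affymetrix kit for whole transcripts. How background, normalization and probe set summary were handled by the authors is not stated there. The number of arrays limits the precision (median SE of a difference 0.11).

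Groups and replicate numbers came from the sample titles. Of 28853 probe sets, 21789 had 1 gene symbol, 1621 several and 5443 none, and 21698 of the first matched RefSeq genes of GRCm38.p6 by Entrez identifier. The brightest probe set stood for a gene. The 23410 probe sets with a gene were fitted with limma 3.58.1 (lmFit, eBayes) in R 4.3.3, with two-sided p-values and Benjamini-Hochberg adjustment at 0.05. The fit was tested on simulated data. It recovered 27% of probe sets changed by 0.5 and 81.7% of those changed by 1, and 3.67% of its calls were false. A missing call at the size of the Cd24a or Aqp11 difference therefore does not show that a change was absent.

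Genes named were the 7 members, Hdac3, at most 4 called genes of each of 16 lists by size (otherwise the 2 with the smallest p above the median level), the nearest gene in pattern and the flanking genes. Runx1, Runx3, Zbtb7b, R3hdm4, Cd5, S1pr1, Itgae, Bcl2, Cd69 and Ccr7 fall outside this rule and were named after their values were seen. Erythroid (1 higher, 1 lower of 6) and thymic epithelial (1 higher, 1 lower of 10) lists held calls; B cell, neutrophil, macrophage and dendritic, and NK and gamma-delta lists held 0. Of 200 list genes, 21 had no probe set of their own. Alternatives were 3 normalizations, a filter at the 40th percentile, all probe sets, an intensity trend with robust prior, array weights, a replicate block and leaving out each array. The members and lists were chosen with earlier results of these data known.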

Additional observations from a re-analysis of the deposited data

How the results depend on the processing

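Cd8a, Arpp21 and Rmnd5a kept their sign and did not pass in any of 14 alternatives. Cd4 turned from -0.00 to 0.014 after cyclic loess normalization and to 0.0098 with array weights, and ranged from -0.063 to 0.075 with 1 array left out. Cd8b1 turned from 0.01 to -0.088 after median centring and ranged from -0.0054 to 0.040 with 1 array left out. Cd24a passed after median centring (-0.64), without dim probe sets (-0.54), with an intensity trend and robust prior (-0.54), with array weights (-0.59) and with the replicate block (-0.54), and ranged from -0.69 to -0.46 with 1 array left out. Aqp11 passed after median centring (-0.56), without dim probe sets (-0.46), with an intensity trend and robust prior (-0.46) and with the replicate block (-0.46), and ranged from -0.55 to -0.34 with 1 array left out. The count of members called was 0 as deposited, 2 in each of those 4 settings, 1 with array weights and 0 to 1 with 1 array left out. The cause of these changes was not tested.

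Over all probe sets 1355 were called as deposited, 2060 after median centring, 2285 with array weights, and 474 (without KO array 2) to 1946 (without WT array 3) with 1 array left out. Higher calls made up 30.2% as deposited and 9.56% after median centring, which shifted all differences downward. With the replicate block 1162 were called, and the calls of Lef1, Cd247, Themis, Ifngr1, Klf1, Cldn3 and Epcam were lost. Deviations of same-numbered WT and KO arrays correlated at 0.25, -0.07 and -0.03 across probe sets, and not every array correlated best with its own number. The 3 deviations of a group sum to 0, which ties these correlations to each other. They cannot decide whether replicate numbers paired the arrays. Averaging probe sets per gene gave no new value, since each member has 1. Percentiles of the members' levels moved by less than their spread between arrays after quantile normalization. With 3 arrays a group, the median SE of a difference was 0.11.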
